A study of Mus musculus with 12 samples.

Results

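The genes described here are 47 genes of the cell division cycle, measured in mouse embryonic fibroblasts with and without the transcription factor STAT5. They were taken from a list of names that was fixed with earlier results of these data known. Each gene is represented by its brightest probe set, judged by the mean of the 12 arrays. They are 47 of the 18193 genes that the arrays measured through a probe set assigned to 1 gene. By role, 13 copy DNA or supply its building blocks, 9 act at the G1/S transition or in the DNA damage checkpoint, and 25 act in mitosis. Every listed gene had a probe set, so none is missing from the counts.

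A dividing cell first licenses its replication origins by loading the MCM helicase, then copies its DNA in S phase, and then separates the copies in mitosis. Genes for the S phase steps are controlled largely by E2F factors that bind their promoters. Genes for mitosis are switched on later, mainly through the MuvB complex with B-MYB and FOXM1, which acts at promoter elements called CHR, often with the factor NF-Y at CCAAT boxes near them. Fibroblasts in culture divide readily, and the RNA of these genes is widely used as a sign of how many cells of a culture are cycling.

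The study compared wild-type fibroblasts (WT), Stat5-null fibroblasts (KO) and Stat5-null fibroblasts that had received a STAT5A vector by retroviral infection (S5), all of strain C57BL/6. Each was either untreated or exposed to growth hormone, for 120 minutes, a hormone whose receptor activates STAT5. The 6 groups held 2 arrays each, called biological duplicates by the design text, and p-values measure only the spread between such arrays. No KO group with an empty vector and no vehicle group was analysed here. Genotype and cell preparation cannot be told apart, and the expression level and clonal origin of the S5 cells are not given in the sources used here.

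Both Stat5 genes were checked first, on the log2 scale of the deposited values, where values below 4 form a background mode and carry no order. Stat5a read 11.51, 11.45, 12.11 and 12.39 on the WT arrays and 2.38 to 2.47 on the KO arrays. Stat5b read 8.98 to 9.39 in WT and 1.93 to 2.01 in KO. In S5 that Stat5a probe set stayed at 2.34 to 2.42, while the other Stat5a probe set read 9.86, 9.90, 9.04 and 9.14 in S5 and 2.19 to 2.38 in WT and KO. WT and S5 are thus marked by different Stat5a probe sets, and KO by neither. Cish and Socs2, feedback inhibitors that STAT5 induces, rose with the hormone in WT by 3.14 and 4.22 and in S5 by 5.75 and 4.51 on the log2 scale, with limma adjusted p-values of at most 6.46e-05.

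Promoters of members differ by role in the letters they hold, and 5 are shown here because their genes stand for the mitotic and the replication pattern described next. They come from RefSeq (assembly GRCm38.p6), run 5′ to 3′ on the gene's strand from 120 bases before the annotated transcription start to 30 bases after it, and carry matched motifs in capitals. Motifs were searched on both strands, so that TTTGAA may appear as TTCAAA and CCAAT as ATTGG. The CHR was searched as TTTGAA or TTCGAA. The E2F sites were searched as TTTCCCGC, TTTGGCGC, TTTCGCGC, TTTGGCGG or TTTCCCGG. The first 3 belong to the mitosis genes Ccnb2 (cyclin B2, a partner of CDK1), Cdc20 (activator of the anaphase-promoting complex) and Kif11 (the motor that separates spindle poles), at chr9:70421525-70421674 on the minus strand, chr4:118437314-118437463 on the minus strand and chr19:37376262-37376411 on the plus strand. The other 2 belong to the helicase subunits Mcm6 and Mcm3, at chr1:128359676-128359825 and chr1:20820283-20820432, both on the minus strand. In Mcm6 the leftmost capitals are 2 overlapping E2F matches.
Ccnb2: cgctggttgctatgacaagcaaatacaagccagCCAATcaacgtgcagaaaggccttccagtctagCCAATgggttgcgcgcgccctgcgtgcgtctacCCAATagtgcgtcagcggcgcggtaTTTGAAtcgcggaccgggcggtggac
Cdc20: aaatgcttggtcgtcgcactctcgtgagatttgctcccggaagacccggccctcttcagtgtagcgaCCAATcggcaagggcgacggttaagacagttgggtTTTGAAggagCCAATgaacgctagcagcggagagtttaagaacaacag
Kif11: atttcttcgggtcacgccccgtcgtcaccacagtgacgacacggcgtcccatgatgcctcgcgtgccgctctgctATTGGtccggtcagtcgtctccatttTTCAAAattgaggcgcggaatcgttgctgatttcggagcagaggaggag
Mcm6: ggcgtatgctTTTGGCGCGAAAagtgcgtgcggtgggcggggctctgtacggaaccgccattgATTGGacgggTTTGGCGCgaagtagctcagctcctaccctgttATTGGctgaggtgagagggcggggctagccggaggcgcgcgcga
Mcm3: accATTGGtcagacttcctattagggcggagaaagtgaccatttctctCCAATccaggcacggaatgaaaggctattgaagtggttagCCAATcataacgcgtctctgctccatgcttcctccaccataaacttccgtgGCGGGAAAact

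Over windows from 250 bases before to 50 bases after the start, 37 of the 47 members were matched to RefSeq, with 41 windows because some have several starts. A CHR lay in 17 of the 21 windows of 20 mitosis genes (81 percent), against 19.2 percent of all 32851 windows. Of the 12 windows of 11 replication genes, 2 held one (16.7 percent). E2F sites lay in 6 of those 12 replication windows (50 percent) and in 2 of the 21 mitosis windows (9.52 percent), against 3.59 percent of all windows. CCAAT was frequent in both, in 19 mitosis windows (90.5 percent) and 9 replication windows (75 percent), against 37.4 percent of all. A CHR and a CCAAT together lay in 17 mitosis windows and 2 replication windows, against 7.52 percent of all. Birc5, Cenpe, Mad2l1 and Nek2 had no CHR match in this window. A match describes the letters only.

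Stat5-null cells held less RNA of nearly all members. In KO against WT, with treated and untreated arrays pooled (4 against 4), 41 members were lower and 4 higher by limma at an adjusted p of 0.05, against 17.2 percent of all genes lower and 21 percent higher. Among the genes with a mean of at least 4, a range that holds 46 members, 24.6 percent were lower. For each of those 41 members every KO array lay below every WT array, against 14.9 percent of all genes. One of the 41 is E2f2, whose values lay nearly all in the background mode, so that its order carries no meaning. Markers of macrophages moved with genotype too: the mean log2 value over 14 of them was 9.27 to 10.76 on the WT arrays and 3.95 to 4.29 on the KO arrays, and 13 of the 14, all but Itgam, were lower in KO. Of the 14, 1 in WT and 8 in KO lay in the background mode on every array. The part of these cells in the differences was not tested. In RNA of whole cultures, fewer cycling cells and less RNA per cycling cell cannot be told apart. Values below are log2 values per array in the order untreated 1, untreated 2, hormone 1 and hormone 2, and differences are log2 differences with the standard error (SE) of the limma fit.

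**Figure D1:**
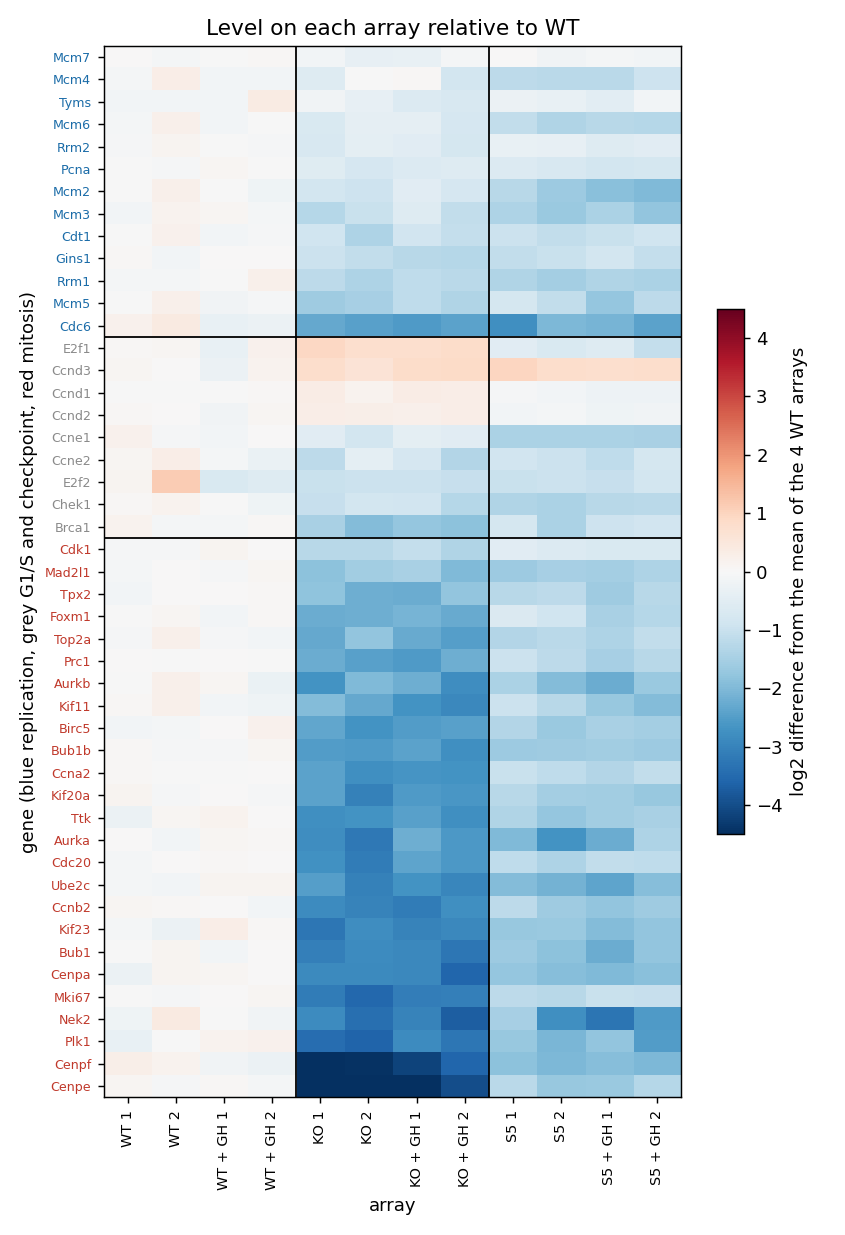
Each row is 1 of the 47 genes and each column 1 of the 12 arrays, and the colour is the log2 difference from that gene's mean over the 4 WT arrays. The 25 mitosis genes at the bottom are darkest blue in KO and paler in S5, most replication genes are pale blue in both, and E2f1 is red in KO alone.

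Of the 13 replication genes, 11 were lower in KO, with a median difference over all 13 of -0.75 and a range from -2.44 to -0.22. The median of all genes was 0.0038. The MCM proteins form the ring that unwinds DNA, and Mcm7, which encodes one of them, read 12.99, 12.86, 12.95 and 13.01 in WT and 12.84, 12.59, 12.61 and 12.88 in KO. The groups overlapped, and the difference of -0.22 (SE 0.08) did not pass (adjusted p = 0.0767), though it did without KO replicate 1 or KO + GH replicate 2 (-0.29 each, adjusted p = 0.0395 and 0.0335). Mcm4 also did not pass, at -0.35 (SE 0.21, adjusted p = 0.282), with the KO arrays spread from 11.60 to 12.48, and did without KO + GH replicate 1 (-0.57, adjusted p = 0.0381). Of 3 dimmer probe sets of Mcm7 1 passed, at -0.30 (adjusted p = 0.000105), as did the dimmer one of Mcm4, at -0.42 (adjusted p = 0.00537). Of the other helicase subunits, Mcm5 fell most, by 1.40, followed by Mcm3 at -0.99, Mcm2 at -0.75 and Mcm6 at -0.57.

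The loading factor Cdc6, which brings the helicase to origins, fell most of the 13 replication genes. Of the 33 other replication genes described below, 5 were also lower by at least 2 on the log2 scale. Cdc6 read 9.72, 9.95, 9.22 and 9.27 in WT and 7.23, 7.08, 6.98 and 7.12 in KO. Every KO array lay below every WT array, and the difference was -2.44 (SE 0.16, limma adjusted p = 2.01e-05), or 5.42-fold. Its partner Cdt1 was at -1.05 (SE 0.11), and Gins1, a part of the active helicase, stood at -1.15 (SE 0.07).

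Pcna, the sliding clamp of DNA polymerase, read 13.54, 13.53, 13.64 and 13.55 in WT and 13.02, 12.80, 12.96 and 12.97 in KO. The groups were narrow and separate, so a small difference of -0.63 (SE 0.05) passed (adjusted p = 5.98e-05). The subunits of ribonucleotide reductase, which makes deoxyribonucleotides, were lower by different amounts, Rrm1 at -1.23 (SE 0.08) and Rrm2 at -0.62 (SE 0.08). Rrm2 has brighter and dimmer probe sets, and the dimmer ones gave -1.40 and -2.03. Tyms, the thymidylate synthase, was near background on all arrays, from 3.83 to 4.90. Its difference of -0.46 passed (adjusted p = 0.0201), and not after quantile normalization (adjusted p = 0.112), on untreated arrays only (-0.15, adjusted p = 0.693) or without WT replicate 1, WT replicate 2, KO replicate 2 or KO + GH replicate 2 (adjusted p from 0.0533 to 0.0663).

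The 9 genes of the G1/S transition and the checkpoint split, with 4 higher and 5 lower in KO. The 4 that rose were the D cyclins, which start the passage through G1, and E2f1, an activating E2F factor. Ccnd1 and Ccnd2 rose by 0.28 and 0.27, and Ccnd3 by 0.78. E2f1 read 8.80, 8.83, 8.42 and 8.92 in WT and 9.68, 9.51, 9.52 and 9.56 in KO, without overlap, a rise of 0.82 (SE 0.14, adjusted p = 0.00259). The E cyclins, partners of CDK2 at the start of S phase, were lower, Ccne1 at -0.57 (SE 0.08) and Ccne2 at -0.92 (SE 0.19). Brca1, needed for repair of broken DNA by recombination, was the lowest of the 9 at -1.75 (SE 0.17), and Chek1, the kinase of the replication checkpoint, was at -0.996 (SE 0.10). E2f2 had a difference of -0.98 but lay below 4 on 11 of the 12 arrays, and with values under 4 set to 4 the difference was -0.08. On the growth hormone arrays alone Ccne2 (adjusted p = 0.0598), E2f2 (adjusted p = 0.497) and the replication gene Mcm6 (adjusted p = 0.0513) did not pass.

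All 25 mitosis genes were lower in KO, with a median of -2.67, or 6.36-fold, and 23 of them by at least 2 on the log2 scale, against 4.11 percent of all genes. By the probe sets used, the largest differences were those of Cenpe and Cenpf, whose products act at the kinetochore, where chromosomes are tied to the spindle. Dimmer probe sets of Cdc20 gave -4.37 and -3.25. Cenpe, the kinetochore motor, read 9.56, 9.42, 9.53 and 9.41 in WT and 4.97, 4.62, 4.77 and 5.50 in KO, a difference of -4.52 (SE 0.19, limma adjusted p = 2.74e-06). Its dimmer probe set gave -2.40. Cenpf, a large protein of the outer kinetochore, was at -4.20 (SE 0.13), and the centromere histone Cenpa at -3.06 (SE 0.15).

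The kinases of mitosis ran from -3.29 to -1.23. Plk1 (centrosome and cytokinesis kinase) was at -3.29, or -2.92 with values under 4 set to 4, since 3 of its KO arrays lay there. Aurka (spindle poles) was at -2.70, Aurkb (chromosomal passenger complex) at -2.42, and Nek2 (centrosome separation) at -3.23 with the widest SE of the 25, 0.34. Cdk1, the kinase that drives entry into mitosis, differed least of the 25. It read 12.06, 12.04, 12.23 and 12.11 in WT and 10.88, 10.86, 11.03 and 10.75 in KO, a difference of -1.23 (SE 0.06, adjusted p = 5.46e-06). Its cyclins differed more, Ccna2 at -2.63 and Ccnb2 at -2.93.

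The spindle checkpoint genes, which hold anaphase until all chromosomes are attached, ran from Mad2l1 at -1.72 to Bub1 at -3.02, with Ttk at -2.67 and Bub1b at -2.55. Kinesins and midzone proteins were lower too, with Kif23 at -2.996, Kif20a at -2.65, Kif11 at -2.46, Prc1 at -2.36 and the spindle assembly factor Tpx2 at -2.001. Mki67, the proliferation marker that coats mitotic chromosomes, read 12.56, 12.53, 12.60 and 12.68 in WT and 9.44, 9.04, 9.47 and 9.52 in KO. Its difference of -3.22 (SE 0.08, adjusted p = 2.08e-07) had the smallest p of the 47. Foxm1, the activator of many of these genes, was itself at -2.20 (SE 0.08), Top2a (topoisomerase that untangles chromosomes) at -2.21, Birc5 (survivin) at -2.49, and the anaphase genes Cdc20 and Ube2c at -2.71 and -2.78.

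**Figure D2:**
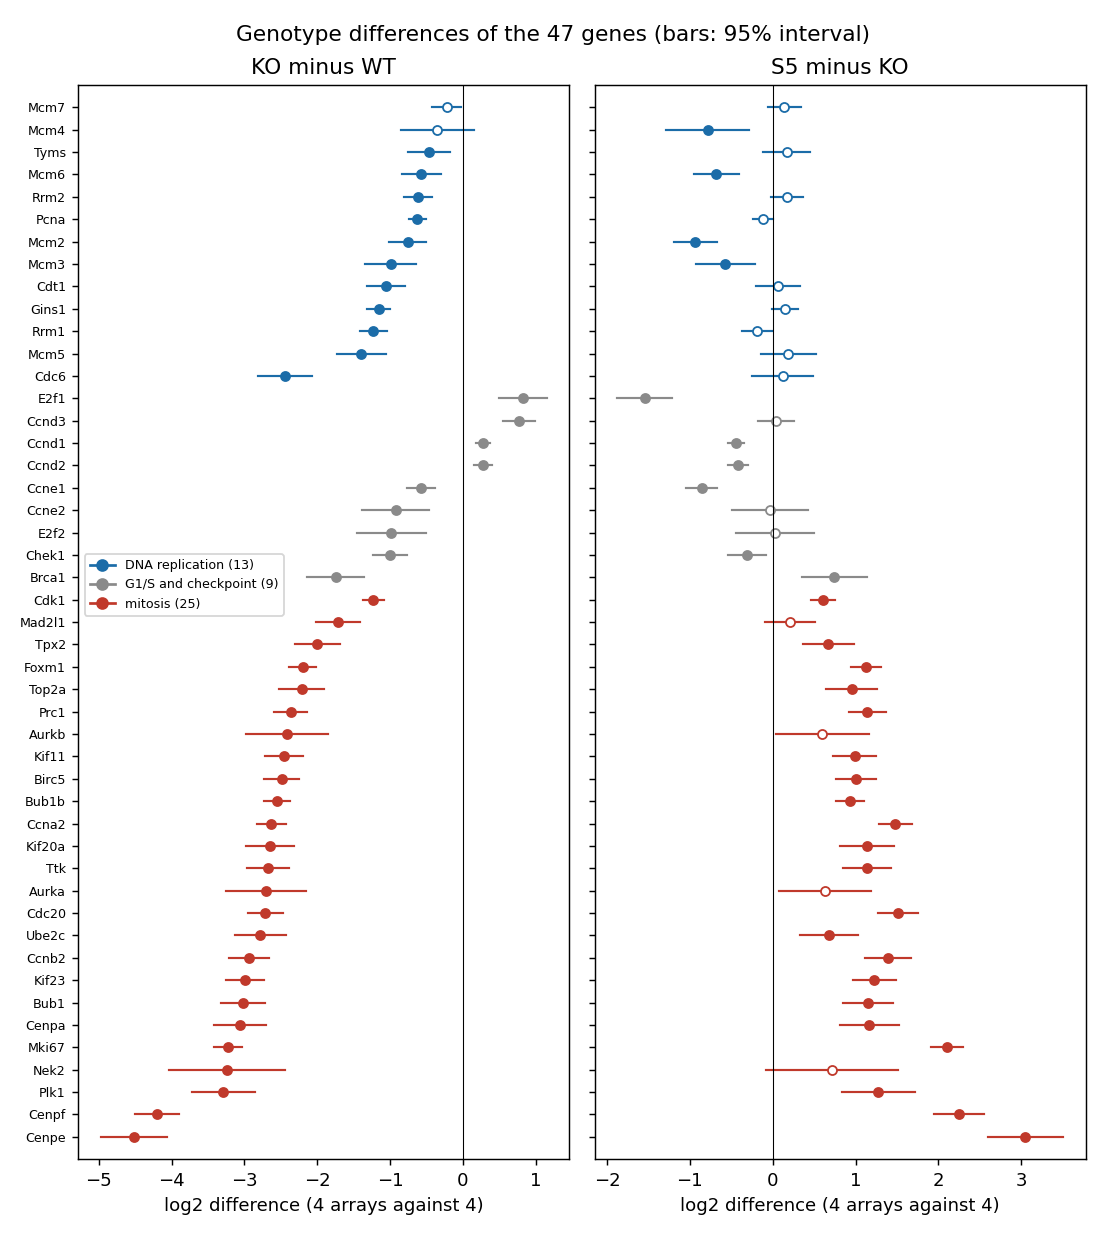
Log2 differences of the 47 genes between genotypes, 4 arrays against 4, with 95 percent intervals from limma; filled points passed an adjusted p of 0.05. All 25 mitosis genes lie left of 0 in KO minus WT and right of 0 in S5 minus KO, while most of the 13 replication genes lie near 0 in S5 minus KO or left of it.

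Mitosis and replication genes differed in the size of the change, and this comparison is a description without a test, since genes are not replicates. The mean over the mitosis genes, relative to untreated WT, lay between -2.80 and -2.64 on the 4 KO arrays, and that over the replication genes between -1.04 and -0.85. The KO minus WT change was thus larger for mitosis than for replication by 1.82 on the log2 scale (KO minus WT of the mean mitosis minus replication difference, -1.82). It was -1.44 with the probe sets of a gene averaged and -1.47 with medians over the genes.

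The size of a difference also varied between the probe sets of 1 gene. Of the 43 other probe sets of the members with a mean above 4, all 43 differed in the direction of the one used, which was always the brighter, and 31 showed a larger KO minus WT difference. For replication genes the median of 14 other probe sets was -1.13, against -0.75 for the probe sets used in the same 9 genes. For mitosis genes the values were -2.91 over 16 others and -2.63 in the same 13 genes.

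**Figure D3:**
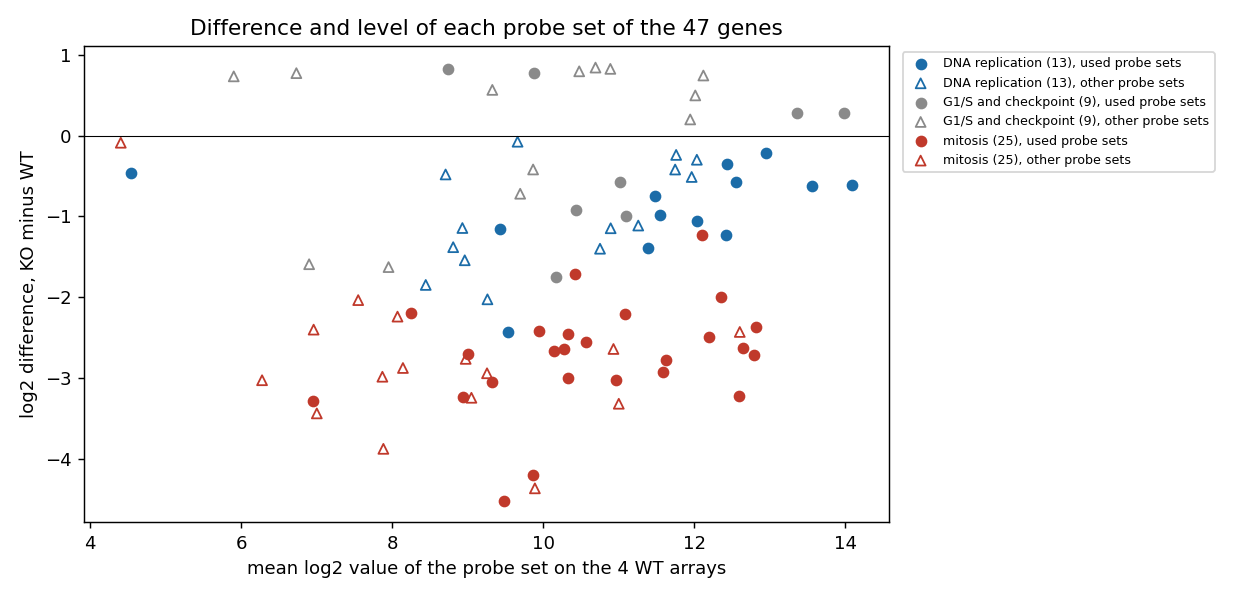
KO minus WT log2 difference against the mean log2 value on the 4 WT arrays, for every probe set of the 47 genes with a mean of at least 4 over the 12 arrays. Filled points are the probe sets used, which lie between -4.52 and -1.23 for mitosis genes (red) and between -2.44 and -0.22 for replication genes (blue).

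With the STAT5A vector, most mitosis genes stood between KO and WT, and by the probe sets used no replication gene was called higher than in KO. In S5 against KO, which share the KO arrays with the comparison above, 22 members were higher and 9 lower, against 20.3 percent of all genes higher and 16.9 percent lower. Among genes with a mean of at least 4 these were 30.9 and 26.1 percent. Of all genes called, 54.5 percent were higher, and 43.8 percent when each array was centred on its median; the counts of members by role were the same under that centring. Of the 25 mitosis genes 21 were higher and none lower, with a median of 1.14, or 2.20-fold. Of the 13 replication genes none was higher and 4 were lower, with a median of 0.06 and a mean of -0.17, which differ in sign. Over the alternatives 0 to 1 replication gene was higher and 2 to 5 were lower: Rrm2 was called higher with its probe sets averaged (0.40, adjusted p = 0.0143), and Gins1 on growth hormone arrays only (0.32, adjusted p = 0.042). Among 14 other probe sets of replication genes with a mean above 4, 3 were called higher and 7 lower, the former being both dimmer ones of Rrm2 (0.58 and 0.46, adjusted p = 0.0441 and 0.00484) and 1 of Mcm7 (0.15, adjusted p = 0.00262). Counts of mitosis genes higher ranged from 19 to 23 over the alternatives.

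The S5 arrays also stood apart in values that are no cell cycle genes. The 3′ minus 5′ signal of Gapdh, a sign of RNA quality, was 1.52 ± 0.08 (SD, n = 4) in S5, 1.04 ± 0.08 in KO and 1.02 ± 0.15 in WT. That of beta-actin did not set S5 apart, with means of 3.09 in S5, 2.96 in KO and 2.88 in WT. Its S5 arrays, from 3.04 to 3.15, overlapped WT replicate 1 (3.13) and KO replicate 1 (3.07). Of 15 fibroblast markers 3 were higher and 6 lower in S5 than in KO, against 20.3 percent of all genes higher and 16.9 percent lower. None of the 15 was in the background mode on every S5 array, and Thy1 read 2.20 to 5.09 in S5 against 14.07 to 14.39 in the others. Fap and Dcn stood at -4.67 and -3.03 in S5 minus KO. The 3 higher ones were Twist1 at 0.34, Prrx1 at 0.18 and Lum at 0.59, or 0.04 with values under 4 set to 4. The other 6, among them Col1a1, Col1a2 and Vim, were not called. In KO against WT 9 of the 15 were not called, 3 were higher and 3 lower, against 21 percent of all genes higher and 17.2 percent lower. Of those lower in KO, 2 were so by at least 2 on the log2 scale, and the lowest difference was -4.10. The macrophage mean was 3.15 to 3.44 in S5, with 11 of the 14 markers in the background mode on every array. The part of these in the S5 differences of the 47 genes was not tested.

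By the probe sets used, Cenpe, Cenpf and Mki67 rose most of the 25. Dimmer probe sets of Cdc20 gave rises of 2.63 and 1.70. Cenpe read 8.26, 7.78, 7.81 and 8.21 in S5, each above every KO array and below every WT array, a difference from KO of 3.05 (SE 0.19, limma adjusted p = 1.35e-05). Its dimmer probe set gave a smaller rise, 0.56 (adjusted p = 0.0306). Mki67 read 11.43, 11.33, 11.60 and 11.54 in S5, a difference of 2.11 (SE 0.08, adjusted p = 9.34e-07). Cenpf was at 2.25, Cdc20 at 1.51, Ccna2 at 1.48, Ccnb2 at 1.39, Foxm1 at 1.13 and Cdk1 at 0.61. The 4 mitosis genes that did not pass were Aurka (0.63, adjusted p = 0.0759), Aurkb (0.60, 0.0931), Nek2 (0.72, 0.152) and Mad2l1 (0.21, 0.265). A dimmer probe set of Nek2 (0.74, adjusted p = 0.013) and one of Aurkb (0.55, 0.0326) did pass. So did Aurkb with its probe sets averaged (0.58, 0.0456). Among genes with a mean of at least 4 alone, Aurka (adjusted p = 0.0362) and Aurkb (0.0458) passed. Aurka passed without S5 replicate 2 (0.81, adjusted p = 0.0414) or S5 + GH replicate 1 (0.84, 0.022), Aurkb without KO replicate 2 (0.78, 0.0487) and Nek2 without S5 replicate 2 (1.03, 0.0379). On the growth hormone arrays alone Ube2c (0.65, 0.0594) and Tpx2 (0.56, 0.0615) did not pass.

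Mad2l1 showed the contrast within the mitosis group, as it was lower in KO and stayed there in S5. It read 8.78, 8.93, 8.91 and 9.04 in S5, against 8.58, 8.84, 8.98 and 8.42 in KO and 10.35, 10.45, 10.36 and 10.52 in WT. The S5 and KO arrays overlapped, and both lay below all WT arrays. Without KO + GH replicate 1 the S5 minus KO difference was 0.35 (adjusted p = 0.0249).

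Among the replication genes, the 4 that were lower in S5 than in KO were helicase subunits: Mcm2 at -0.93 (SE 0.11), Mcm4 at -0.79 (SE 0.21), Mcm6 at -0.68 (SE 0.11) and Mcm3 at -0.57 (SE 0.15). Mcm2 read 11.46, 11.69, 11.48 and 11.29 in WT, 10.67, 10.56, 10.95 and 10.72 in KO, and 10.24, 9.84, 9.60 and 9.49 in S5. By this probe set it thus stepped down from WT to KO to S5 with no overlap. The dimmer probe set of Mcm2 did not pass in KO minus WT (-0.48, limma adjusted p = 0.167). In S5 minus KO it did (-1.02, limma adjusted p = 0.0102). Other dimmer probe sets with a mean above 4 were lower in S5 too, that of Mcm4 at -0.92, that of Mcm6 at -0.63 and those of Mcm3 at -0.76, -0.75 and -0.84. Their limma adjusted p ran from 9.57e-05 to 0.00218. By the probe sets used, Mcm3 and Mcm4 lost the call on untreated arrays only (adjusted p = 0.258 and 0.0686), and Mcm4 on growth hormone arrays only (0.158). Each of the 2 genes also lost it without KO replicate 2 or S5 replicate 2 (adjusted p from 0.0648 to 0.0731). Mcm3 lost it without KO + GH replicate 1 or S5 + GH replicate 2 (0.0526 and 0.0656), and Mcm4 without S5 replicate 1 or S5 + GH replicate 1 (0.06 and 0.0741). Cdc6 read 6.79, 7.51, 7.44 and 7.15 in S5, inside and around the KO range, with a difference of 0.12 (95 percent interval -0.25 to 0.49, adjusted p = 0.585). Calls gained by leaving out 1 array were Pcna (-0.17, adjusted p = 0.0134) and Rrm1 (-0.25, 0.0472) without KO replicate 2, and Gins1 (0.21, 0.0416) without S5 + GH replicate 2.

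Of the G1/S and checkpoint genes, Brca1 alone was higher in S5 than in KO, at 0.74 (SE 0.17, adjusted p = 0.00967), though averaging its probe sets gave 0.06 (adjusted p = 0.677) and untreated arrays only gave 0.60 (adjusted p = 0.114). The other probe sets in that average had means of 1.96 to 2.12, in the background mode. E2f1 fell by 1.55 and read 8.23, 8.05, 8.16 and 7.66, below all KO and all WT arrays. Ccne1 read 9.60, 9.61, 9.59 and 9.57 in S5 against 10.51, 10.19, 10.58 and 10.52 in KO, a difference of -0.86 (SE 0.08). Ccnd1 and Ccnd2 stood at -0.45 and -0.42. Chek1, at -0.31, passed narrowly (adjusted p = 0.0435) and lost the call under 16 of the 23 alternatives, whose adjusted p ran up to 0.503. Among them was each array left out in turn, except KO replicate 1 and KO + GH replicate 2 (adjusted p from 0.059 to 0.131).

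On the arrays, 20 of the 25 mitosis genes had every WT value above every S5 value and every S5 value above every KO value, against 1.57 percent of all genes. No replication gene and 1 of the 9 others, Brca1, had this order. By the limma calls the order held for 21 of 25, 0 of 13 and 1 of 9, against 2.3 percent of all genes. Relative to untreated WT, the mitosis mean was -2.73 ± 0.07 (SD, n = 4) in KO and -1.56 ± 0.15 in S5. The replication mean was -0.95 ± 0.08 in KO and -1.13 ± 0.06 in S5, with every S5 array just below every KO array.

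**Figure D4:**
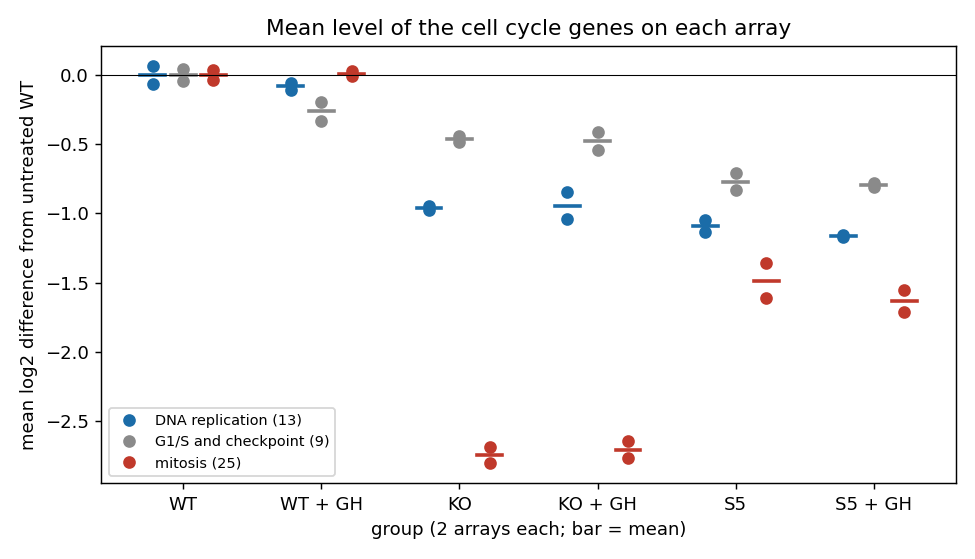
Mean log2 difference from untreated WT over the genes of each role, 1 point for each of the 12 arrays and a bar for the mean of each group of 2. The mitosis points lie between -2.80 and -2.64 in KO and between -1.71 and -1.36 in S5, while the replication points lie between -1.17 and -0.85 in both.

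The mitosis minus replication change was 1.34 for S5 minus KO and -0.48 for S5 minus WT. S5 stayed below WT for most members: 43 were lower and 1 higher (Ccnd3, 0.82), against 20.1 percent of all genes lower and 24.7 percent higher, and 28.7 percent lower among those with a mean of at least 4. All 25 mitosis genes were lower, with a median of -1.51, as were 11 of 13 replication genes, with a median of -1.14. Mcm7 (-0.08, adjusted p = 0.464), Tyms (-0.29, adjusted p = 0.0929) and Ccnd2 (-0.14, adjusted p = 0.0587) did not pass. The last 2 passed without WT + GH replicate 1, at -0.42 (adjusted p = 0.0149) and -0.20 (adjusted p = 0.00253). Calls lost were E2f2 (-0.30, adjusted p = 0.541) and Ccne2 (-0.78, 0.0641) on growth hormone arrays only, and Ccnd1 (-0.07, 0.373) on untreated arrays only. Brca1 lost its call with probe sets averaged (-0.29, adjusted p = 0.0582), an average in which all but the probe set used lay in the background mode. E2f2, counted among the 43, lay mostly in the background mode. Nek2 (-2.51), Ube2c (-2.10), Aurka (-2.07) and Plk1 (-2.01) were the mitosis genes farthest below WT.

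Further genes of the same processes were described from lists of other replication and other mitosis genes. Of 33 other replication genes 26 were lower in KO and none higher, against 17.2 and 21 percent of all genes, with a median of -0.92. In S5 against KO 8 were higher and 3 lower, with a median of 0.10. Of all genes 20.3 percent were higher and 16.9 percent lower there, or 30.9 and 26.1 percent at a mean of at least 4. Named next are those with the smallest adjusted p in KO minus WT, and none of the 3 lower in S5 is among them. Mcm10, which joins the helicase to the polymerases, was at -2.65 and then 1.06 in these comparisons, Pole2 (a polymerase epsilon subunit) at -2.38 and 1.10, Tk1 (thymidine kinase) at -2.37 and 0.39, and Uhrf1, which keeps DNA methylation through S phase, at -1.89 and 0.23 (the last with adjusted p = 0.137). Of 39 other mitosis genes 36 were lower in KO and none higher, with a median of -2.42, and 28 were higher and 2 lower in S5, with a median of 1.04. The condensin subunit Smc4 was at -1.72 and 1.44, the mitotic kinase Pbk at -2.67 and 1.81, and the spindle gene Aspm at -3.49 and 1.90. Array order of WT above S5 above KO held for 25 of these 39 and for 5 of the 33, against 1.57 percent of all genes.

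A list of 24 brakes of the cycle and parts of its repressor complexes was mixed. In KO 7 were higher and 7 lower than in WT and 10 were not called, against 21 percent of all genes higher and 17.2 percent lower. The genes named next were picked for the smallest adjusted p. Cdkn2a, whose products p16 and ARF restrain the cycle, was higher in KO by 2.16 (SE 0.12, adjusted p = 7.75e-06) and lower in S5 than in KO, at -1.88. The CDK4 and CDK6 inhibitor Cdkn2c went the other way, at -2.15 in KO and 2.83 in S5. Rbl1, encoding the pocket protein p107 and itself an E2F target, was at -1.78 in KO and 0.13 in S5 against KO (adjusted p = 0.324). Rb1 and Foxo1 were higher in S5 than in KO by 1.14 and 1.44.

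Growth hormone for 120 minutes left most members within the spread of the arrays. In WT 1 of 47 passed, against 6 percent of all genes, in KO none of 47, against 0.308 percent, and in S5 2 of 47, against 7.88 percent. At an unadjusted p under 0.05 there were 3, 4 and 5 members, against 3510, 1800 and 3733 of all 18193 genes. In S5 46.1 percent of all genes called were higher, and 32.2 percent after centring. The log2 difference was below 0.5 in size for 45 members in WT, 44 in KO and 42 in S5. Of all 18193 genes it was so for 15865, 17073 and 15754. The 95 percent interval lay within 1 in either direction for 42, 42 and 43 members, and was not counted over all genes. No member passed in the tests of response differences between genotypes. Of all genes 1.27 percent passed there for WT minus KO, 1.13 percent for S5 minus KO and 2.92 percent for S5 minus WT. At an unadjusted p under 0.05 there were 3, 6 and 2 members, against 1656, 1775 and 2452 of all 18193 genes.

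**Figure D5:**
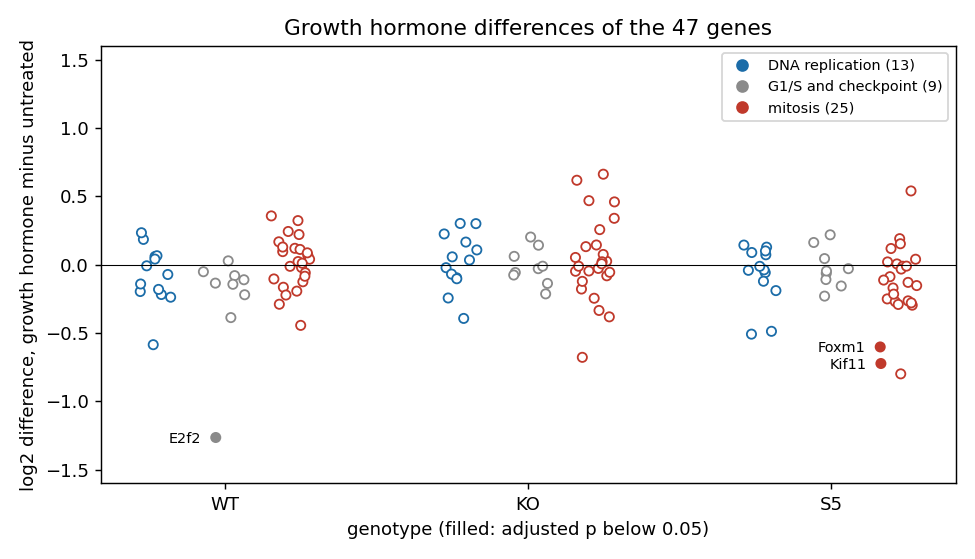
Log2 differences between growth hormone and untreated arrays (2 against 2) for the 47 genes in each genotype, by role; filled points passed an adjusted p of 0.05. Nearly all points lie within 0.5 of 0, and the named points are E2f2 in WT and Foxm1 and Kif11 in S5.

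The S5 calls were Kif11 and Foxm1. Kif11 read 9.36 and 9.09 untreated and 8.64 and 8.36 with the hormone, lower on both treated arrays, a difference of -0.72 (SE 0.16, limma adjusted p = 0.0367). In KO it read 8.39 and 8.03, then 7.64 and 7.43 (-0.68, adjusted p = 0.175), and in WT 10.40 and 10.55, then 10.22 and 10.15 (-0.29, adjusted p = 0.373). Kif11 thus lay lower on the treated arrays in all 3 genotypes, and as the mean of the genotypes the difference was -0.56 (SE 0.09, adjusted p = 0.00863), the only member called there, against 14.5 percent of all genes. With its probe sets averaged the call was lost in both, at -0.52 in S5 (adjusted p = 0.126) and -0.31 as the mean of the genotypes (adjusted p = 0.0847).

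Foxm1 read 7.61 and 7.36 untreated and 6.79 and 6.98 treated in S5, a difference of -0.60 (SE 0.11, adjusted p = 0.0208). With its probe sets averaged the difference was -0.02 (adjusted p = 0.968), and in the trended fit the adjusted p was 0.113. The WT call was E2f2, with 3.26 and 4.31 untreated and 2.45 and 2.58 treated, all but 1 value in the background mode; with values under 4 set to 4 its difference was -0.15. Fitting only the groups compared ended all 3 calls, with adjusted p of 0.134 for Kif11, 0.132 for Foxm1 and 0.257 for E2f2. Leaving out 1 array ended the Foxm1 call for S5 replicate 1 or S5 + GH replicate 1 (adjusted p = 0.0977 and 0.118), and any 1 of the 4 S5 arrays ended that of Kif11 (adjusted p from 0.0692 to 0.178), as did any 1 of the 4 WT arrays, with adjusted p of 0.057 or 0.0614. Any array but an untreated WT one ended that of E2f2 (adjusted p from 0.0708 to 0.165).

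The other replication genes included 1 hormone call in S5, Mcm10 (0.27, adjusted p = 0.0263), and the other mitosis genes 2, Cdca8 (passenger complex, 0.58, adjusted p = 0.0216) and Kif4 (chromosome motor, 1.05, adjusted p = 0.0465). Among the brakes, E2f4, the repressive E2F factor, rose in WT by 0.69 and in S5 by 1.011 (adjusted p = 0.0307 and 0.00655), and Gas1, a gene of arrested cells, stood at -0.66 and -1.35 (adjusted p = 0.0215 and 0.00119). Of 21 alternatives 8 ended the call of Mcm10, 4 that of Cdca8 and 13 that of Kif4, with adjusted p up to 0.983, 0.168 and 0.228. The calls of E2f4 and Gas1 in WT were lost under 11 and 5, with adjusted p up to 0.157 and 0.107, and those in S5 under 1 each (0.0509 and 0.0577).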

How the data were processed

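RNA of 12 cultures was measured on Affymetrix arrays. The authors deposited log2 expression values for 45101 probe sets; the log2 scale is inferred from their range of 0.99 to 15.95. GCOS and RMA are named, without settings, per the submitters' processing notes, and no build is given in the sources used here. The 34945 probe sets with 1 gene were kept, leaving out 64 control probe sets, 932 with several genes and 9160 with none, and the one with the highest mean stood for each of 18193 genes. A mean per group was fitted with limma 3.58.1 (R 4.3.3; 6 residual and 1.2 prior degrees of freedom), and two-sided p-values were adjusted by Benjamini-Hochberg over all genes, with 0.05 as threshold. The fit was tested on simulated data. Values below 4 were taken as background. Precision is limited by the number of arrays. The members, lists and bound were chosen with earlier results of these data known. Named genes are all members, up to 4 genes per other list and comparison with the smallest adjusted p, all marker genes, Stat5a, Stat5b, Cish and Socs2. List genes without a usable probe set were not analysed here. Alternatives were other normalizations, probe set rules, filters, priors, weights, array subsets, a replicate block and leaving out each array.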

Additional observations from a re-analysis of the deposited data

Results flagged for a closer look

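The response of Mcm10 to growth hormone differed between genotypes, as tested by the interaction in limma. Mcm10 read 9.94 and 9.88 untreated and 9.71 and 9.75 treated in WT, 7.03 and 7.02 then 7.27 and 7.34 in KO, and 8.17 and 8.02 then 8.36 and 8.36 in S5. The WT response minus the KO response was -0.47 (SE 0.08, adjusted p = 0.0394), and the S5 response minus the WT response was 0.46 (SE 0.08, adjusted p = 0.0244). These calls were lost under 18 and 10 of 21 alternatives, with adjusted p up to 0.99992 and 0.875.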

How the results depend on the processing

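Over the 23 alternatives no member reversed between genotypes. The 25 mitosis genes stayed lower in KO and in S5 than in WT under each of them. Of 45 members called in KO minus WT, 4 lost the call at least once, as did 6 of 31 in S5 minus KO and 4 of 44 in S5 minus WT. Leaving out 1 array gave 44 to 46, 29 to 31 and 44 to 46 members called, and the mitosis minus replication change ran from -1.84 to -1.80, 1.30 to 1.38 and -0.52 to -0.44. With the probe sets of a gene averaged that change was -1.44, 1.12 and -0.32, and with medians over the genes it was -1.47 for KO minus WT and 0.96 for S5 minus KO.

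The count for growth hormone in WT was 0 with probe sets averaged, every probe set on its own, genes with a mean of at least 4, array weights, only the groups compared, or the replicate number as a block. In S5 it was 1 with probe sets averaged or a trended prior and 0 with only the groups compared. With probe sets averaged, 1 member was called for the S5 minus WT response and 0 for the mean of the genotypes, where Mcm10 turned from 0.12 to -0.047 (adjusted p = 0.745). Leaving out 1 array gave 0 to 1 in WT, 0 to 1 in KO, 0 to 2 in S5, 0 to 1 for each response difference and 1 to 3 for the mean of the genotypes. Replicate numbers did not pair arrays (correlations of replicate differences between groups from -0.36 to 0.20). The block ended the calls of E2f2 in WT (adjusted p = 0.0535) and Chek1 in S5 minus KO (adjusted p = 0.061). Crossed numbers in KO, tried after the data were seen because of the correlation of -0.36, gave 0 calls. Depth in reads does not apply; 2 arrays a group and the background mode, which holds most E2f2 values and is close to Tyms, limit these values.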
